A study of Bos indicus with 12 samples.

Results

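Endometrium of 12 Nelore cows was described here by the progesterone (P4) that circulated in each cow at the uterine biopsy. All 12 of the 12 RNA-seq libraries of the series were used, 1 per cow, and the P4 concentration was taken from the label of each sample. The cows were set in order of P4 as a continuous measure, and also as 6 higher and 6 lower cows on either side of 3.78 ng/mL, each group holding 3 ECP and 3 CON cows. ECP cows had received 1 mg of estradiol cypionate (an ester that prolongs estradiol) when the P4 insert came out, and CON cows nothing at that moment. Every cow was healthy, multiparous, suckled and without a corpus luteum at the start. All of them had been given estradiol benzoate with an intravaginal P4 insert, cloprostenol at its removal, then buserelin, and were inseminated at once. Biopsies were taken through the cervix on D 6 after buserelin, from cows with a new corpus luteum. The study picked the sequenced cows for like P4 in ECP and CON, and by pregnancy status so that each treatment held pregnant and non-pregnant cows. It also took ECP cows that had shown estrus and CON cows that had not, so treatment and estrus cannot be told apart, and the range of P4 was narrow.

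Progesterone is the hormone of the corpus luteum. In the days after ovulation it turns an endometrium that had grown under estradiol into a secreting one, whose glands feed the conceptus before it attaches. It acts through a nuclear receptor and through membrane receptors of the PAQR family, and in the mouse uterus it raises a Hedgehog signal from the epithelium that reaches the stroma through the receptor PTCH1.

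P4 was 3.79 (cow B1042), 3.85 (E0040), 3.86 (E0406), 4.07 (D160), 4.09 (E1010) and 4.73 ng/mL (B0646) in the higher cows. In the lower cows it was 2.82 (X228), 3.05 (E0952), 3.16 (C317), 3.36 (E0819), 3.57 (1814) and 3.77 ng/mL (X156). The means were 4.07 ± 0.348 ng/mL in the higher cows and 3.29 ± 0.349 ng/mL in the lower cows (SD, n = 6 each). Cows B1042 and X156, on either side of the limit, differed by 0.02 ng/mL. Within the higher group every ECP cow (4.07 to 4.73 ng/mL) was above every CON cow (3.79 to 3.86 ng/mL). Slopes above 3.86 ng/mL thus rest on ECP cows alone, and the higher CON cows cover a very narrow range. Pregnancy was later diagnosed in 4 of the 6 higher cows and in 2 of the 6 lower cows. P4 was 0.313 ng/mL higher in the later pregnant than in the non-pregnant cows (two-sided exact permutation test, p = 0.329). Without B0646 this difference was 0.555 ng/mL (exact p = 0.026), and without X228 it was 0.173 ng/mL (exact p = 0.582). Because the cows had been picked on both P4 and pregnancy, these values describe the picked cows only.

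**Figure D1:**
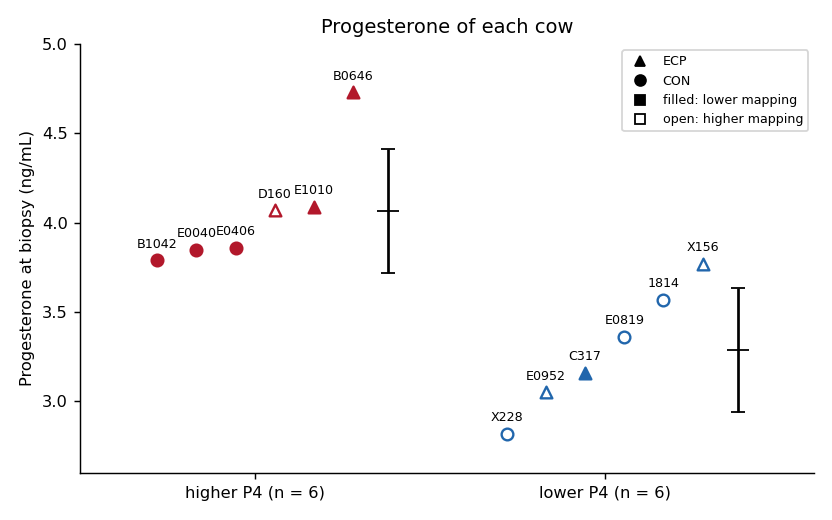
Progesterone at biopsy (ng/mL, vertical axis) of each cow in the higher and the lower group, with triangles for ECP and circles for CON. Filled symbols are libraries of the lower mapping class, and bars give mean ± SD. The groups meet between 3.77 and 3.79 ng/mL, and 5 of the 6 higher cows are filled.

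The libraries also differed in the share of reads that mapped to the genome, given in the study's read table. With a limit of 90% set for the present comparison, 6 libraries were of lower and 6 of higher mapping. The classes were spread unevenly over P4. Of the higher P4 cows 5 of 6 were in the lower mapping class, and of the lower P4 cows 1 of 6, so that D160 and C317 were the 2 exceptions. P4 was 3.91 ± 0.507 ng/mL in the lower mapping class and 3.44 ± 0.462 ng/mL in the higher mapping class (SD, n = 6 each), a difference of 0.473 ng/mL (two-sided exact permutation test, p = 0.115). Without C317 the difference was 0.624 ng/mL (exact p = 0.0411), and without D160 it was 0.599 ng/mL (exact p = 0.0498). Without B0646 it was 0.31 ng/mL and without X228 0.349 ng/mL, with an exact p of 0.236 in each case. Both exceptions were ECP cows, so among the CON cows the P4 groups and the mapping classes were the same split. P4 and mapping class can be told apart here through few cows. Values with the class in the model or within each class are therefore given beside many of the results. Total counts were 8637917 to 15015055 in the higher cows and 10662044 to 13245891 in the lower cows. Of 24616 gene IDs, 14814 were tested, those whose mean normalized count exceeded both 5 and its own SD.

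No gene passed edgeR's quasi-likelihood test against P4. With P4 as a continuous measure and treatment in the model, 0 of 14814 genes (0%) reached an adjusted p (Benjamini-Hochberg) of 0.10 or less, the limit the study used, and the lowest was 0.464. An unadjusted p under 0.05 was found for 695 genes (4.69%), 332 with a positive and 363 with a negative slope, where 5% of the genes tested would be 740.7. limma voom called 0 genes, with 687 at an unadjusted p under 0.05. DESeq2, the tool to which the study applied this limit between ECP and CON, called 11 (0.0743%). Of these 6 had a positive and 5 a negative slope, among 855 at an unadjusted p under 0.05. Slopes were small. On the log2 scale the median absolute slope was 0.12 per ng/mL against a median standard error (SE) of 0.16, and 172 genes had a slope beyond 1 in either direction.

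With the cows as higher against lower, edgeR again called 0 of 14814 genes (0%), with a lowest adjusted p of 0.502. Here 1163 genes (7.85%) had an unadjusted p under 0.05, 588 with a positive and 575 with a negative fold change in the higher cows. limma voom called 0, with 1170 at an unadjusted p under 0.05. DESeq2 called 63 (0.425%), 27 higher and 36 lower in the higher P4 cows, among 1348 at an unadjusted p under 0.05. Its calls for the slope and for the groups had 1 gene in common, which was 9.09% of the 11 and 1.59% of the 63. Normalized counts (each divided by the DESeq2 size factor of its library) lay in every higher cow above every lower cow for 27 genes (0.182%), and in every higher cow below every lower cow for 32 (0.216%).

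The mapping class went with about as many genes as the P4 group did. Between the lower and the higher mapping class, in a model that also held treatment, 1107 genes (7.47%) had an unadjusted p under 0.05, and edgeR called 1 (0.00675%), ENSBTAG00000035959. Its normalized counts were 168 (B1042), 145 (E0406), 65.3 (E0040), 75.2 (E1010), 98.8 (B0646) and 181 (C317) in the lower mapping class. The higher mapping libraries had 24.2 to 39.0, with D160 at 25.2, so the classes did not overlap while the P4 groups did. The log2 difference was 2.05 (SE 0.27, adjusted p = 0.0873), and it was no longer called without X228, 1814, B1042, E0406, E0819, B0646, D160, E0952 or X156. DESeq2 called 100 genes (0.675%) between the classes, 6 of which were among its 63 calls for the P4 groups.

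With the mapping class added to the model, fewer genes had an unadjusted p under 0.05 for P4, while standard errors grew. The median absolute slope was 0.117 without and 0.116 with the class, and its median SE 0.159 and 0.183. For the groups the median absolute log2 ratio was 0.128 and 0.143, and the median SE 0.152 and 0.205. The slope then had 421 genes (2.84%) at an unadjusted p under 0.05, and the groups 659 (4.45%), against 695 and 1163 without the class. edgeR called 0 genes (0%) for either, limma voom called 0, and DESeq2 called 6 (0.0405%) for the slope and 18 (0.122%) for the groups. Of the 63 genes that DESeq2 called between the groups, 55 kept an unadjusted p under 0.05 in edgeR given the class. Those 63 had been selected for a group difference in these very libraries, which by itself favours a high count. The count therefore does not show how far their differences depend on the class. The share to be had from such a selection alone was not tested. The group comparison given the class sets D160 and C317 against the other cows of their classes. Within the 6 lower mapping libraries 891 genes (6.01%) had an unadjusted p under 0.05 and edgeR called 1 (0.00675%). Within the 6 higher mapping libraries 338 (2.28%) had one and edgeR called 0 (0%). DESeq2 called 133 and 17 of 14814 genes within these classes. Averaged over genes, P4 took 10.1% of the variance that treatment left, the P4 group 12.4%, mapping class 12.2% and later pregnancy 8.55%, where a single term of the 10 degrees of freedom takes 10% on average.

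**Figure D2:**
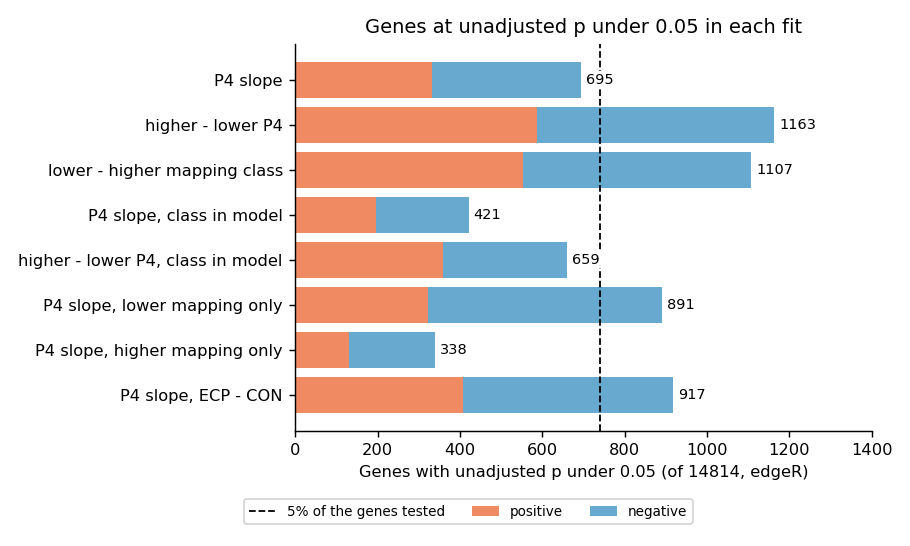
Number of genes with an unadjusted p under 0.05 (horizontal axis, of 14814 tested with edgeR) in each of 8 fits, split into positive and negative differences. The dashed line marks 5% of the genes, 740.7. The P4 group (1163) and the mapping class (1107) lie above it, and the P4 slope lies below it without (695) and with (421) the class in the model.

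The gene that followed P4 most closely by p was ENSBTAG00000012540, which no table used here pairs with a symbol. Its normalized counts were 71.4, 96.0 and 43.1 in the higher ECP cows and 476, 289.7 and 283 in the lower ECP cows, each in order of rising P4. In the CON cows they were 72.1, 87.1 and 123 at higher P4 and 236, 150.1 and 69.1 at lower P4. All 6 higher cows lay below the median of the lower cows, and the groups overlapped through cow 1814. The slope was -1.79 (SE 0.29, unadjusted p = 3.13e-05), with an adjusted p of 0.464 in edgeR, 6.16e-06 in DESeq2 and up to 0.9997 in edgeR under the other settings. It was -1.80 given the class, -1.71 within the lower mapping libraries and -2.17 within the higher mapping libraries. Without X156, which had 283 counts at 3.77 ng/mL, edgeR's adjusted p was 0.082 with a slope of -1.81, the only cow whose removal brought a call for the slope.

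ENSBTAG00000021287 had the opposite course. It had 119, 71.5, 149, 171, 145 and 166 normalized counts in the higher cows in order of rising P4, and 56.0, 57.9, 55.3, 56.5, 98.9 and 139 in the lower cows. The 4 cows of lowest P4 lay within 55.3 to 57.9, and from 3.57 ng/mL upward the lowest value was 71.5. The slope was 1.10 (SE 0.24, unadjusted p = 0.00054, adjusted p = 0.972 in edgeR and 0.0156 in DESeq2), and 1.22 given the class, 1.05 and 1.32 within the lower and the higher mapping libraries. The other IDs named for a low slope p were ENSBTAG00000006158, with a slope of -0.57 (unadjusted p = 0.000281), and ENSBTAG00000003018, with 0.62 (unadjusted p = 0.000447), and in both every higher cow lay on the same side of the median of the lower cows. DESeq2 gave them adjusted p-values of 0.00931 and 0.0768, and edgeR 0.972 for both.

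Between the groups the IDs of lowest p with higher counts in the higher P4 cows were ENSBTAG00000021945 and ENSBTAG00000024960. ENSBTAG00000021945 had 1977 to 3419 normalized counts in the higher cows (median 2516) and 1337 to 1807 in the lower cows (median 1550.6), and the groups did not overlap. Its log2 ratio of higher over lower cows was 0.71 (SE 0.12, adjusted p = 0.502 in edgeR and 0.00398 in DESeq2). ENSBTAG00000024960 had 35.3 to 82.0 against 17.6 to 27.8, again without overlap, with a log2 ratio of 1.12 (SE 0.21). Both IDs were picked by their group p and had groups without overlap. D160 therefore had to lie above all lower cows, and C317 below all higher cows. D160, at higher P4 in the higher mapping class, had the highest counts of all (3419 and 82.0). C317, at lower P4 in the lower mapping class, had 1450.2 and 22.8, among the lower cows. Given the class the log2 ratios were 0.92 and 1.40, larger than without it. These ratios rest on D160 and C317, whose places came with the choice of the IDs. The part of the class in these differences was not tested.

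The IDs of lowest p with lower counts in the higher P4 cows were ENSBTAG00000030599 and ENSBTAG00000002854. ENSBTAG00000030599 had 149 to 355 normalized counts in the higher cows and 339 to 730.4 in the lower cows, with a log2 ratio of -1.04 (SE 0.20, adjusted p = 0.502 in edgeR and 0.00759 in DESeq2). The overlap came from E0406, the highest of the higher cows. Without it the fold change was -1.29 and edgeR's adjusted p 0.00293, the only call between the groups when a cow was left out. ENSBTAG00000002854 had 616 to 925 against 922 to 1452, with B0646 alone above the lowest of the lower cows, and a log2 ratio of -0.66 (SE 0.14). The choice of these IDs by their p on the same cows makes their values a description.

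**Figure D3:**
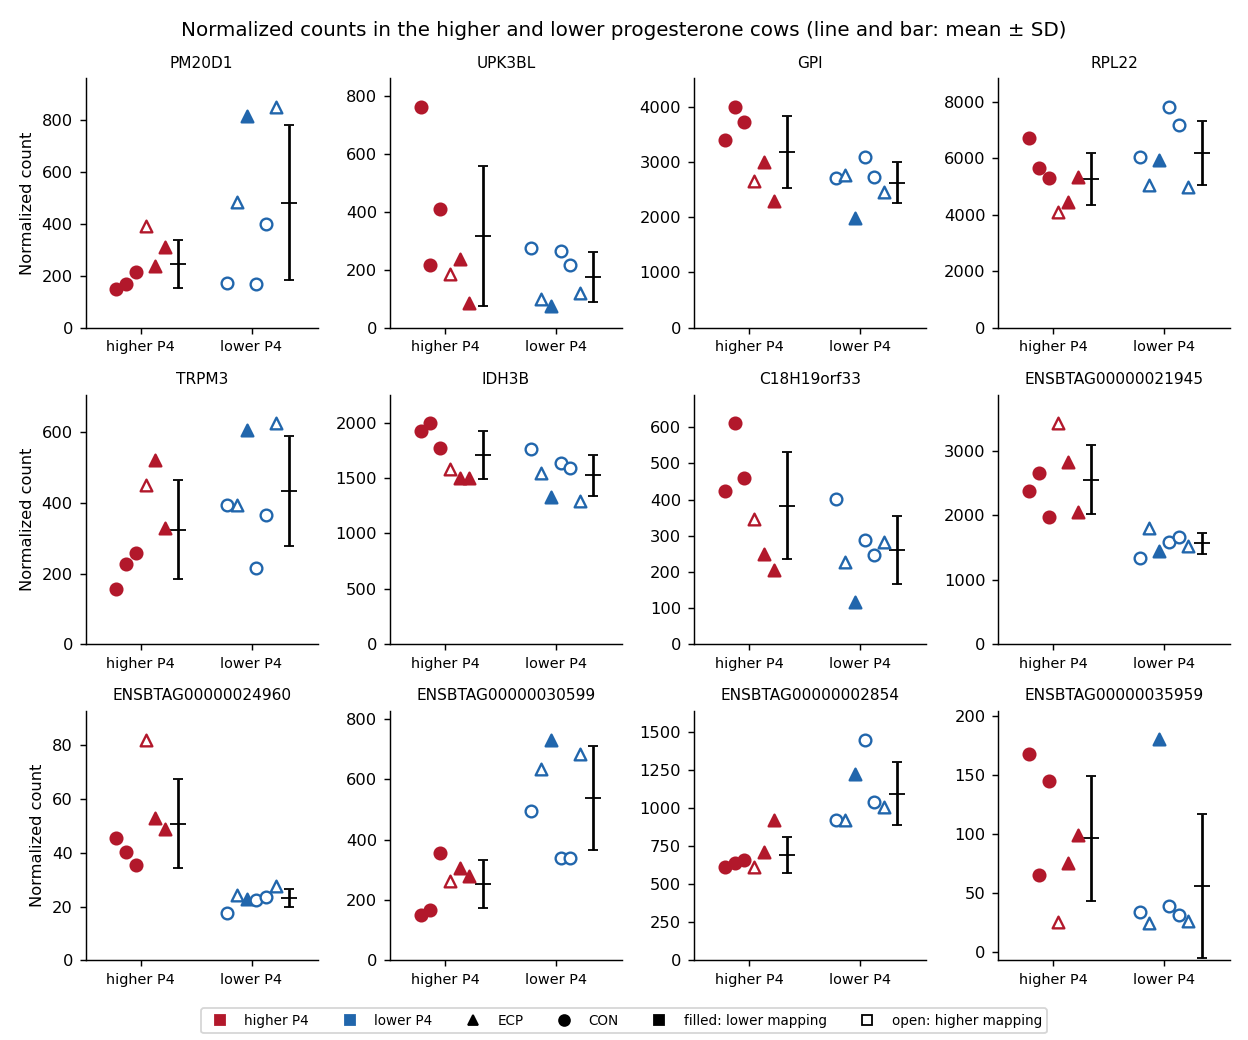
Normalized counts (vertical axes, linear) of 12 genes in the higher and the lower P4 cows, 1 point per cow and mean ± SD beside them, with triangles for ECP, circles for CON and filled symbols for the lower mapping class. The groups are apart for ENSBTAG00000021945 and ENSBTAG00000024960 and overlap for the others, while filled and open symbols are apart for ENSBTAG00000035959.

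Named genes were limited to those with a symbol in the study's table of genes that it called between ECP and CON. They were thus chosen on these cows for another contrast, and cover few of the genes known to answer to P4. Of the 117 tested, 56 had a positive and 61 a negative slope, and the median slope was -0.0055, beside 0.0055 over all genes. An unadjusted p under 0.05 was found for 3 of them (2.56%, beside 4.69% of all genes), PEPD, ATP5J and XRCC5. Between the groups it was found for 8 (6.84%, beside 7.85%), which were PM20D1, UPK3BL, GPI, IDH3B, C18H19orf33, TRPM3, PEPD and RPL22. None of the 117 was called by edgeR, limma voom or DESeq2 without its filtering in either comparison, and none had groups that did not overlap. The lowest edgeR adjusted p among them was 0.972 for the slope and 0.516 between the groups. DESeq2 with its filtering called PM20D1 between the groups (adjusted p = 0.0995).

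Among genes of the hormone response, PAQR8, a membrane receptor for progesterone, had 647, 338 and 505 normalized counts in the higher ECP cows and 937, 471 and 354 in the lower ECP cows, in order of rising P4. The CON cows had 244, 411 and 265 at higher P4 and 206, 257 and 265 at lower P4. The groups overlapped over most of their range, and E0952 stood above all other cows. The slope was -0.13 (SE 0.24) and the log2 ratio of higher over lower cows was 0.047 (SE 0.25), or 0.21 given the class. Without E0952 the slope was 0.29, so this cow set its sign.

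S100G, or calbindin-D9k, a calcium-binding protein that sex steroids control in the uterus, had 4089.8, 4766 and 3832 normalized counts in the higher ECP cows, below 2 of the 3 lower ECP cows with 7929, 3961 and 6372. The CON cows had 2908, 2808 and 2081 at higher P4 and 2065, 2631 and 2675 at lower P4. Their counts rose with P4 up to 3.79 ng/mL (B1042) and were lower beyond it. The slope was -0.24 (SE 0.19), or -0.14 given the class, with -0.42 (0.20) in ECP cows and 0.27 (0.32) in CON cows, and the difference between treatments had an unadjusted p of 0.0909. The model for slopes by treatment, here and for the genes below, did not hold the mapping class. A slope in CON cows therefore also holds any difference between the classes. Without E0952 the slope over all cows was 0.038. RUNX2, a runt-domain transcription factor, had a slope of -0.38 (SE 0.30), and -0.044 given the mapping class, and its log2 difference between lower and higher mapping libraries was -0.73 (SE 0.24). For the 5 genes of this list, which also holds CRYM and CBFB, 2 slopes were positive and 3 negative, with a median of -0.13.

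Both gene IDs of PTCH1, the Hedgehog receptor, had negative slopes, -0.34 (SE 0.22) for ENSBTAG00000048213 and -0.26 (0.18) for ENSBTAG00000009903. In the first the higher ECP cows had 304, 237 and 152 normalized counts against 265, 248 and 203 in the lower ECP cows, so the lowest value came at the highest P4. The higher CON cows had 83.5, 149 and 169, within the range of 100.4 to 202 of the lower CON cows apart from B1042. Without B0646 and X228, the cows of highest and lowest P4, the slopes were 0.18 and 0.11, so their sign rested on these 2 cows. GDF7, a ligand of the bone morphogenetic protein family and the other gene of this list, had a slope of 0.11 (SE 0.23) and a log2 ratio of 0.38 between the P4 groups, so that 1 of the 3 slopes was positive.

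**Figure D4:**
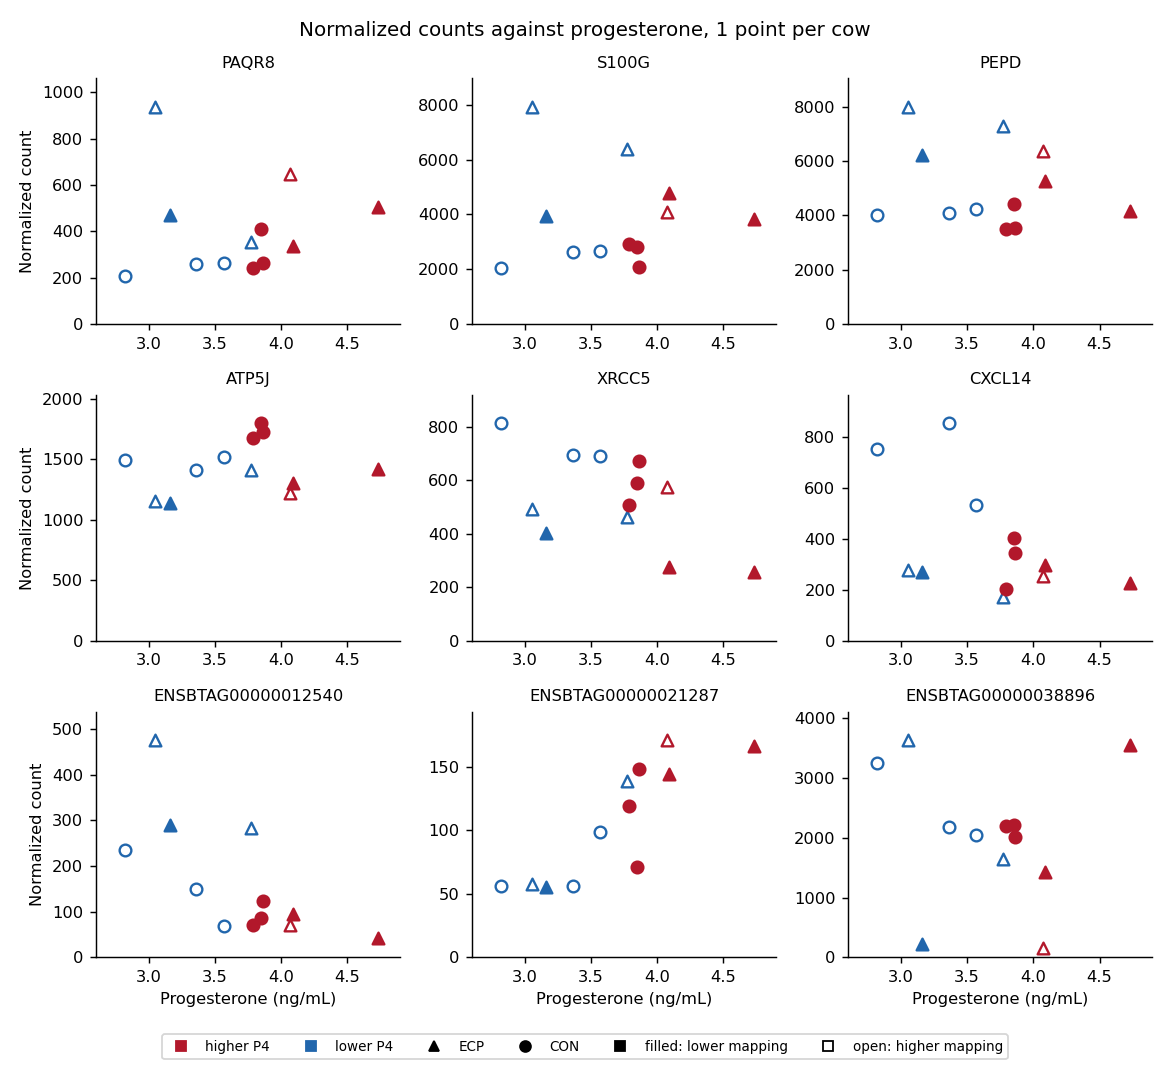
Normalized counts (vertical axes, linear, starting at 0) against progesterone (ng/mL, horizontal axes) for 9 genes, 1 point per cow, with triangles for ECP, circles for CON, red for higher and blue for lower P4, and filled symbols for the lower mapping class. ENSBTAG00000012540 runs down and ENSBTAG00000021287 runs up over the range of P4, while PAQR8 and S100G are spread more by single ECP cows such as E0952.

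Mitochondrial genes had 5 positive slopes of 6, with a median of 0.078. ATP5J, a subunit of the ATP synthase, had 1225, 1304 and 1423 normalized counts in the higher ECP cows and 1157, 1139 and 1415 in the lower ECP cows. In the CON cows it had 1675, 1797 and 1724 at higher P4 and 1496, 1413 and 1523 at lower P4. Each of the 3 higher CON cows thus lay above each lower CON cow, while the ECP cows overlapped. Among CON cows this split is also the one by mapping class. The slope was 0.20 (SE 0.075, unadjusted p = 0.0192, adjusted p = 0.972 in edgeR and 0.717 in DESeq2), and 0.18 given the class, with 0.22 and 0.083 within the lower and the higher mapping libraries. NDUFB3, a subunit of respiratory complex I, had a slope of 0.14 (SE 0.091). IDH3B, part of isocitrate dehydrogenase in the citric acid cycle, gave a log2 ratio of 0.17 between the groups (SE 0.067, unadjusted p = 0.0295). ACSF2, an acyl-CoA synthetase, was the exception with a slope of -0.16 (SE 0.088).

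Of the glycolytic enzymes, GPI, which turns glucose phosphate into fructose phosphate, had 2297 to 3990.5 normalized counts in the higher cows (median 3197) and 1991 to 3083 in the lower cows (median 2723). All 3 higher CON cows, which are also the CON cows of the lower mapping class, were above the lower cows. The ECP cows overlapped. The log2 ratio was 0.26 (SE 0.10, unadjusted p = 0.0204, adjusted p = 0.58 in edgeR), and 0.33 given the class. Without the class in the model, the slope was 0.45 (0.21) within CON cows and 0.045 (0.14) within ECP cows. This difference had an unadjusted p of 0.13. HK2, the hexokinase that phosphorylates glucose, had a slope of -0.031 (SE 0.33), and its sign turned under 6 of the other settings and without 3 single cows.

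In the ribosome and translation list 3 of 7 slopes were positive and the median was -0.012. RPS2, in the small subunit of the ribosome, gave a slope of -0.11 (SE 0.074). RPL22, of the large subunit, had 4119.9 to 6724 normalized counts in the higher cows and 5002 to 7820.1 in the lower cows, and a log2 ratio of -0.22 (SE 0.097, unadjusted p = 0.0389). Of the higher cows 5 of 6 lay below the median of the lower cows. The splicing list had 3 positive slopes of 5, led by RBM48, a protein of the minor spliceosome, with 0.14 (SE 0.11). Of the chromatin genes 3 of 8 had positive slopes, with 0.11 (SE 0.078) for ASXL1, a Polycomb-associated protein, and -0.15 (0.10) for NPAT, an activator of histone genes.

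Leukocyte genes had slopes of 0.10 to 0.28 apart from the chemokine CXCL14. SAMSN1, an adaptor protein of lymphocytes, had a slope of 0.28 (SE 0.19), which was -0.15 without B0646. CXCL14 had 256, 299 and 227 normalized counts in the higher ECP cows and 280.1, 269 and 173 in the lower ECP cows. In CON cows it had 202, 405 and 345 at higher P4 and 755, 855 and 534 at lower P4, without overlap. That separation in CON cows is equally one by mapping class. Its slope was -0.47 over all cows (SE 0.27) and -0.28 given the class. By treatment it was -1.40 (0.43) in CON cows and -0.10 (0.27) in ECP cows, without the class in the model. The log2 difference between lower and higher mapping libraries was -0.51 (0.27), so P4 and class cannot be told apart in the CON slope. The difference between treatments had an unadjusted p of 0.0264 and did not pass after adjustment, where edgeR called 0 of 14814 genes (0%) with a lowest adjusted p of 0.30, 917 had an unadjusted p under 0.05, limma voom called 0 and DESeq2 called 43 (0.29%).

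In the matrix and peptidase list, PEPD, or prolidase, which splits dipeptides that end in proline, had the lowest slope p of all 117 symbols. It had 6381, 5275 and 4157 normalized counts in the higher ECP cows and 7993, 6226 and 7272 in the lower ECP cows. The CON cows had 3498, 4416 and 3545 at higher P4 and 4002, 4069 and 4251 at lower P4. Counts of the ECP cows were thus lowest at the highest P4, and those of the CON cows overlapped. The slope was -0.33 (SE 0.12, unadjusted p = 0.0163, adjusted p = 0.972 in edgeR and 0.665 in DESeq2), -0.23 (0.13) given the class, and -0.35 and -0.16 within the lower and the higher mapping libraries. Without B0646 the slope was -0.18. PEPD also went with the class itself, with a log2 difference of -0.29 (0.12) between lower and higher mapping libraries.

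PM20D1, an enzyme that joins fatty acids to amino acids, had 394, 237 and 311 normalized counts in the higher ECP cows and 485, 819.01 and 851 in the lower ECP cows, without overlap. The CON cows had 151, 170.0 and 215 at higher P4 and 173, 171 and 399 at lower P4. The log2 ratio was -0.84 (SE 0.25, unadjusted p = 0.00582, adjusted p = 0.516 in edgeR, 0.137 in DESeq2 and 0.0995 to 0.9994 over all settings), and -0.92 given the class. Its slope was -0.93 within the lower mapping libraries and 0.56 within the higher mapping libraries. ADAM9, a membrane metalloproteinase, had a slope of 0.13 (SE 0.090). Its symbol was given here to ENSBTAG00000017455, which the study's text lists beside ADAM9 as an uncharacterized protein, so this identity is uncertain. Over the 7 genes of the list 4 slopes were positive, with a median of 0.078.

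The 3 genes of the adhesion and glycan list and the 4 transporters and channels had negative slopes throughout, with medians of -0.18 in both lists. ST8SIA4, which adds polysialic acid to surface proteins, had a slope of -0.18 (SE 0.11), and MGAT5, which branches N-glycans, of -0.25 (0.16). TRPM3, a cation channel, had 156.5 to 523 normalized counts in the higher cows and 214 to 626 in the lower cows, and a log2 ratio of -0.46 (SE 0.19, unadjusted p = 0.0335). Its slope was -0.50 within the lower mapping libraries and 0.045 within the higher mapping libraries. SLC38A1, a transporter of glutamine, had a slope of -0.21 (SE 0.22). No gene of these lists was called, and among all genes 7230 of 14814 had a negative slope.

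Signalling genes had 5 positive slopes of 9 and vesicle genes 4 of 7, with medians of 0.0071 and 0.030. PIK3R3, which regulates phosphoinositide kinase, had 207 to 291 normalized counts in the higher cows and 233 to 344 in the lower cows, and a slope of -0.20 (SE 0.096), or -0.24 given the class and -0.34 without B0646. STX4, a syntaxin of the plasma membrane, had a slope of -0.11 (SE 0.086). The detoxification list had 3 positive slopes of 5, of which CDA, or cytidine deaminase, had 0.33 (SE 0.34). C28H10orf116 had a slope of 0.24 (SE 0.14). Without the class in the model it was 0.41 (0.15) in ECP cows and -0.14 (0.22) in CON cows, where the difference had an unadjusted p of 0.0618. All 3 proteostasis genes had slopes between -0.079 and -0.0055.

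XRCC5, a subunit of the Ku complex that binds broken DNA ends, had 576, 276 and 257 normalized counts in the higher ECP cows and 492, 403 and 465 in the lower ECP cows. The CON cows had 506, 591 and 673 at higher P4 and 813, 694 and 689.5 at lower P4, without overlap. In these cows the P4 groups are also the mapping classes. The slope was -0.39 (SE 0.17, unadjusted p = 0.0415), and -0.19 (0.15) given the class. Its log2 difference between lower and higher mapping libraries was -0.51 (0.13), larger than the one between the P4 groups of -0.30 (0.17), and within the higher mapping libraries the slope was -0.019. Without B0646 the slope over all cows was -0.24.

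The list of markers of other tissues held 2 genes, with opposite signs between the P4 groups. UPK3BL, an uroplakin-like gene listed as a marker of mesothelium, had 762, 218 and 409 normalized counts in the higher CON cows against 274, 265 and 217 in the lower CON cows. In ECP cows it had 187, 238 and 86.1 against 100.02, 73.7 and 121. The log2 ratio was 0.84 (SE 0.29, unadjusted p = 0.0139, adjusted p = 0.569 in edgeR), and 1.04 given the class. MYL3, a myosin light chain listed as a marker of muscle, had 4.89 to 25.9 normalized counts in the higher cows and 1.76 to 52.7 in the lower cows, a log2 ratio of -0.24 (SE 0.48). Their part in the results above was not tested, and in biopsies fewer cells of a type and less RNA per cell cannot be told apart. S100G, an epithelial gene of the uterus, was at 2065 normalized counts or more in every library. CEACAM1 (epithelium) and ASPN (fibroblasts), also planned as markers among the study's symbols, are not described here. Defining markers of endometrium outside those symbols were not paired with gene IDs.

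**Figure D5:**
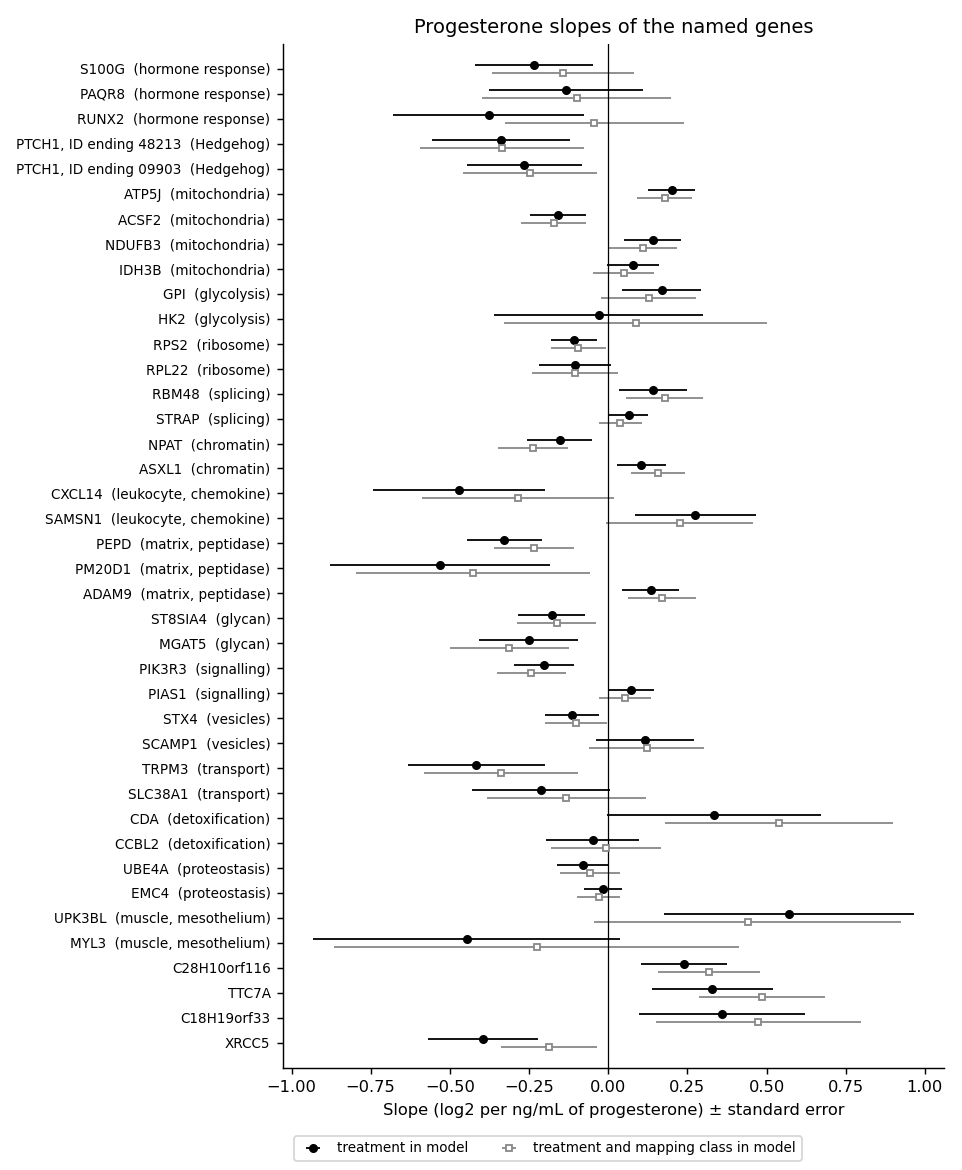
Slopes of the named genes against progesterone (log2 per ng/mL, horizontal axis), each ± 1 standard error, with treatment in the model (filled) and with treatment and mapping class in the model (open), grouped by role. Slopes lie between -0.53 (PM20D1) and 0.57 (UPK3BL), and 12 of the 40 filled points lie within 1 SE of 0.

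For the genes named by symbol, 40 in all with PTCH1 counted under both IDs, 12 slopes were smaller than their standard error, 24 were 1 to 2 standard errors from 0, and 4 were further away. These 4 were PEPD, ATP5J, XRCC5 and PIK3R3. The sign of the slope was the same with the class in the model for 39 of the 40, and the same within both classes for 29. Slopes were closer to 0 with the class in the model for 26 of them. C18H19orf33 and TTC7A were among those further from 0. The ratio of C18H19orf33 between the P4 groups was 0.52 (SE 0.22) and 0.95 given the class. The slope of TTC7A, a scaffold protein of a lipid kinase, was 0.33 (SE 0.19) and 0.49 given the class, and X156 had 949 normalized counts against 250.3 to 468 in the other lower cows.

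One gene went with P4 in the lower mapping class alone by edgeR's test. ENSBTAG00000038896 had 2200.2, 2220.2, 2021, 1432 and 3559 normalized counts in the higher cows of that class, and 219 in C317, the lower cow. Its slope there was 2.59 (SE 0.19, adjusted p = 0.0479). In the higher mapping class D160 had 154 counts at higher P4, and the lower cows had 1639.8 to 3636, a slope of -2.42 (SE 0.91). The cows C317 and D160 were thus far below the other 10, C317 in the lower and D160 in the higher P4 group, and the slope over all 12 cows was 0.026 (SE 0.54).

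No main axis of variation passed a test against P4 after adjustment. The first 3 principal components of log2 CPM, a comparison added after the counts had been seen, held 16.7%, 15.0% and 11.5% of the variance. Pearson's r with P4 was -0.11, 0.048 and 0.45 (permutation p = 0.735, 0.889 and 0.141), and Spearman's rho was -0.26, -0.028 and 0.52 (permutation p = 0.414, 0.942 and 0.0899). Adjusted over the 3 components, the lowest p was 0.424 for r and 0.27 for rho. Without X228 and B0646, the cows farthest from the median P4, r was -0.11, 0.32 and 0.75. Within the lower mapping class r was -0.84, -0.11 and 0.68 (exact permutation p = 0.025, 0.797 and 0.128). Within the higher mapping class it was 0.43, 0.21 and -0.032 (exact permutation p = 0.383, 0.711 and 0.933). The p-values within the classes were not adjusted. For the first component r was negative in the lower and positive in the higher mapping class, where its p leaves the sign unsettled.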

How the data were processed

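Endometrial RNA of 12 cows was sequenced. Reads that the authors had cleaned were aligned by Bowtie2 against masked UMD 3.1, and the deposited values are the raw counts per Ensembl ID that HTSeq gave. The submitters' processing notes name Bowtie2 2.1.0, SAMtools 0.1.18 and HTSeq 0.5.4p2. The quasi-likelihood test of edgeR 4.0.16 after TMM scaling was run in R 4.3.3, with DESeq2 1.42.0 and limma 3.58.1 (voom) as alternatives, and fold changes are on the log2 scale. Standard errors are the fold change over the square root of F. Exact permutation tests of P4 by mapping class and by later pregnancy were run in R over all arrangements, 924 for 12 cows. Permutation tests of the principal components used Python 3.11.15 and SciPy (100000 resamples for 12 cows, all orders within a class). The tests were checked on simulated data. Members, gene lists and named genes were chosen with earlier results of these data known. Named genes were PAQR8, S100G, 2 of lowest slope p per list, 5 symbols of lowest p per direction and fit, and 2 IDs without symbol per direction and fit. ENSBTAG00000035959 and ENSBTAG00000038896 were chosen with their values seen. The filter was applied as the study's methods word it, with normalized means over 5 that also exceed the SD (14814 genes, against 15161 by the mean alone), and adjusted p-values were held to 0.10. Groups follow the P4 labels, and counting error limits the precision of low counts. Symbols came from the study's supplementary gene table for 118 of its 135 IDs, mapping classes were set at 90% of reads mapped in its read table, and 1 gene is not reported here. For strand use in counting, the sources used here give no setting.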

Additional observations from a re-analysis of the deposited data

Results flagged for a closer look

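Among 102 groups of 6 cows checked for a single cow far from the rest, 6 had one, where chance gives about 1 in 20, or 5.1. In the higher P4 cows B0646 stood apart in P4 itself, at 4.73 ng/mL against 3.79 to 4.09 ng/mL in the other 5. RBM48 had 261 normalized counts in the higher cow E0040, against 188 to 212 in the others. ENSBTAG00000002854 had 925 in the higher cow B0646, against 616 to 715. PAQR8 had 937 in the lower cow E0952, against 206 to 471. TTC7A had 949 in the lower cow X156, against 250.3 to 468. ENSBTAG00000035959 had 181 in the lower cow C317, against 24.2 to 39.0, and C317 was the only lower P4 cow in the lower mapping class.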

How the results depend on the processing

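No paired analysis was possible because the labels give the cows no shared replicate numbers. Over the tools, scalings and filters, the number of genes called with P4 moved with the tool. DESeq2 called 11 genes for the slope both without and with its own filtering, 63 and 100 between the P4 groups, 100 between the mapping classes, 6 for the slope and 18 for the groups given the class, 43 for the slope by treatment, and 133 and 17 within the lower and the higher mapping libraries, where edgeR called 0 or 1. The cause was not tested. When each cow was left out, edgeR called 0 to 1 genes for the slope and for the groups and 0 to 3 for the mapping class. The difference in P4 was 0.31 to 0.624 ng/mL between the classes and 0.173 to 0.555 ng/mL by later pregnancy, where the exact permutation p was 0.026 without B0646. Of 1686 values of 64 gene results, 1634 kept their direction and side of the threshold, 18 passed it and 34 turned sign. Without the treatment term the slope was 0.21 for HK2, 0.0070 for UBE4A, -0.079 for C28H10orf116, -0.0021 for IDH3B and -0.083 for ENSBTAG00000038896. Without B0646 and X228 it was 0.18 and 0.11 for the PTCH1 IDs ENSBTAG00000048213 and ENSBTAG00000009903, -0.094 for SAMSN1, 0.14 for SLC38A1, 0.032 for UBE4A, 0.43 for MYL3, -0.44 for ENSBTAG00000035959 and -1.05 for ENSBTAG00000038896. With later pregnancy in the model it was 0.11 for HK2 and 0.056 for CCBL2, and with mapping class 0.087 for HK2 and -0.43 for ENSBTAG00000035959. HK2 also had 0.014 without X156 and B1042, 0.072 in limma voom and 0.00027 by rank of P4. ENSBTAG00000038896 had -0.021 by rank and -0.10 by log2 of P4. With single cows left out, slopes that turned ran over -0.20 to 0.061 for CCBL2, -0.93 to 0.91 for ENSBTAG00000038896, -0.20 to 0.34 for HK2, -0.76 to 0.080 for MYL3, -0.28 to 0.29 for PAQR8, -0.40 to 0.038 for S100G, -0.15 to 0.42 for SAMSN1 and -0.32 to 0.026 for SLC38A1.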
